A study of Mus musculus with 32 samples.

Results

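The kidneys of 14-day-old (P14) and 10-day-old (P10) C57BL/6 mice, an inbred laboratory strain, were compared gene by gene, as 3 P14 arrays minus 3 P10 arrays. These 6 arrays are all those whose titles give P10 or P14, of 32 in a series that covers 10 stages, the earliest at embryonic day 19 (E19) and the latest at postnatal day 35 (P35). Per the labels, whole-kidney total RNA carried the dye Cy5, and the universal reference RNA against which every array was read carried Cy3. All animals are labelled as normal, although a protocol text copied to the samples speaks of ureteral obstruction and sham operation. The labels do not say whether an array holds RNA of 1 animal or of a pool. P-values therefore measure the spread between arrays within a stage, which may in part be technical. This spread was pooled over all 32 arrays of the series, so it is not that of the 6 arrays alone.

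In the mouse, new nephrons stop forming within days after birth. The second postnatal week, still within the suckling period, is a time of growth and differentiation of the nephrons already laid down: tubule segments lengthen, transporters and metabolic enzymes accumulate, blood flow and filtration increase, and cell division and fetal gene expression decline. In RNA from the whole organ, fewer cells of a type and less RNA per cell cannot be told apart.

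Values are log2 ratios of kidney RNA to reference RNA, and changes are P14 minus P10 on the log2 scale with the standard error (SE) after ±. Between 16194 and 17743 genes were measured on each of the 6 arrays. The mean log2 ratio of 36 proximal tubule transport genes lay between 4.26 and 5.00 on them. That of 12 genes of the thick ascending limb lay between 4.71 and 5.58, and that of 14 podocyte genes between 1.52 and 2.53. Kidney markers above 0 were a reason to read the ratio as kidney over reference, so these values do not test that direction. Xist, expressed from the inactive X chromosome of females, was at 1.97 on P10 array 3 and between -7.10 and -4.63 on the other 5 arrays, where the Y-linked gene Eif2s3y was high. The 2 stages therefore differ in their share of female RNA. The numbers that the labels give to the scanned images fall into 3 runs, and each run holds exactly 1 P10 and 1 P14 array: P10 arrays 1, 2 and 3 are of runs 3, 1 and 2, and P14 arrays 1, 2 and 3 of runs 3, 2 and 1. Arrays of the same run but different stage were about as alike as arrays of the same stage, or more so: their median absolute log2 difference was 0.243 to 0.368 (3 pairs), against 0.297 to 0.569 between arrays of 1 stage (6 pairs) and 0.33 to 0.67 where neither was shared (6 pairs). The test was for this reason also fitted with the run as a block, and within-run differences are given. Changes and SE are those of the fit without the block, also where an adjusted p with the block stands beside them.

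Few genes passed the test, and they fell more often than they rose. Of 16941 genes tested, 29 (0.171%) differed between P10 and P14 at an adjusted p under 0.05 by limma's moderated test, 8 of them higher (0.0472%) and 21 lower (0.124%) at P14. A further view is given by the unadjusted p, which was under 0.05 for 1448 genes. With the image run as a block, 306 of 16940 genes (1.81%) passed, 158 higher (0.933%) and 148 lower (0.874%), and all 29 genes were among them. Other settings ended calls: of the 29, 6 passed with the Xist level as a covariate, 3 where each gene is taken from its most variable probe, and 0 in fits to the 6 arrays alone, with or without the block. Changes of at least 2-fold were found in 24 of the 29. The median change over all genes was 0.01, 51.3% of genes had a positive change, and the 10th and 90th percentiles were -0.54 and 0.50. All 29 genes were measured on the 6 arrays, their P10 and P14 values did not overlap, and the difference had 1 sign in each of the 3 runs. Over all genes measured on the 6 arrays, 10.9% did not overlap and 46.1% had the same sign in the 3 runs. The 29 were called by their difference on these same arrays, so neither property adds support to the calls. The count rests on single arrays: 4 genes passed without P10 array 1 and 1 (Megf10) without P10 array 3. It was 16, 3 and 8 without P14 arrays 1, 2 and 3. All 29 kept their direction, which was fixed beforehand, since their P10 and P14 values did not overlap.

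**Figure D1:**
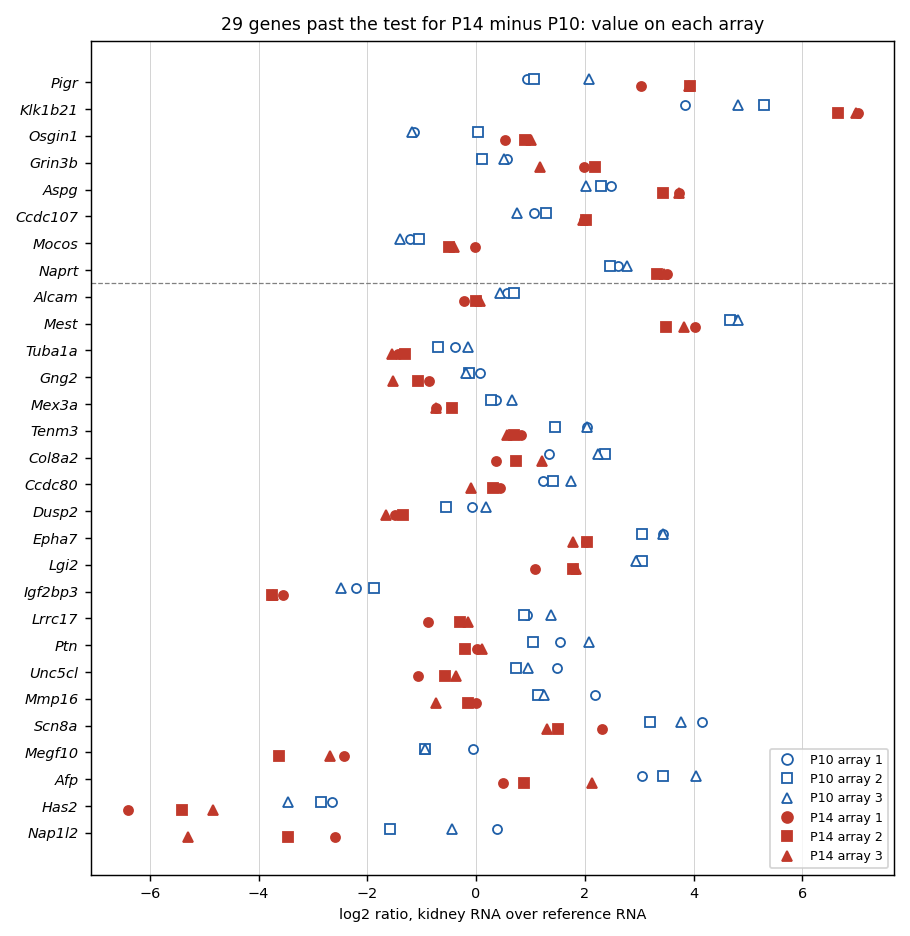
Log2 ratio of kidney to reference RNA (x axis) for the 29 genes that passed the test (y axis), with P10 arrays as open and P14 arrays as filled symbols. The 8 genes above the dashed line rose and the 21 below it fell, and the P10 and P14 values of a gene do not overlap.

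The 8 genes that rose, Pigr, Klk1b21, Osgin1, Grin3b, Aspg, Ccdc107, Mocos and Naprt, have varied roles. Aspg, which encodes an asparaginase, splits asparagine into aspartate and ammonia and had the smallest adjusted p of the 8. Its log2 ratio was 2.49, 2.29 and 2.01 on the P10 arrays and 3.74, 3.45 and 3.73 on the P14 arrays, so that every P14 array lay well above every P10 array. The change was 1.37 ± 0.22 (2.59-fold, adjusted p = 0.00588, or 0.000594 with the run block), and 1.44, 1.43 and 1.25 within the 3 runs. Osgin1, an oxidative stress-induced growth inhibitor, was at -1.14, 0.04 and -1.17 at P10 and at 0.53, 0.89 and 1.01 at P14. It was below the reference on 2 of 3 P10 arrays and above it on all P14 arrays, with a change of 1.57 ± 0.30 (adjusted p = 0.0312). The 250 bases upstream of the annotated starts of both genes, and of Afp, described below among the falls, are shown as examples. They are RefSeq sequences on GRCm38.p6, from chr12:112106433-112106682 (Aspg), chr8:119436897-119437146 (Osgin1) and chr5:90490464-90490713 (Afp), all on the + strand, 5′ to 3′. Capitals mark the letters searched for: TGACNNNGC (core of the antioxidant response element) and GGGCGG (GC box) in Aspg, TGACTCA (AP-1 site) and the GC box in Osgin1, and CCAAT and TATAAA in Afp, on either strand.
Aspg: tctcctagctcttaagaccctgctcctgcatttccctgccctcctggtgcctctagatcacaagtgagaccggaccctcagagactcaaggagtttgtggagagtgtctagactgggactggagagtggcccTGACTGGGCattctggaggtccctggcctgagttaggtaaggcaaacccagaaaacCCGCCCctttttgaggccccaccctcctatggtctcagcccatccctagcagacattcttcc
Osgin1: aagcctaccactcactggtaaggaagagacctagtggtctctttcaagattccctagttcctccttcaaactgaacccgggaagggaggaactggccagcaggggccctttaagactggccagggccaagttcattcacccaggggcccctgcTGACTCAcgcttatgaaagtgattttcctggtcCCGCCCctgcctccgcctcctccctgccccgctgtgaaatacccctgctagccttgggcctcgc
Afp: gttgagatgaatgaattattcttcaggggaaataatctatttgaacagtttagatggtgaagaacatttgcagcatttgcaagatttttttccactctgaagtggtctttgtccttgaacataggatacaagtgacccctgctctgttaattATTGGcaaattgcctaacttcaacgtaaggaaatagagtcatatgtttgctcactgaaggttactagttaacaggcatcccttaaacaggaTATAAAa

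Pigr, the polymeric immunoglobulin receptor that carries IgA across epithelia, had the largest rise. It was at 0.94, 1.06 and 2.07 at P10 and at 3.03, 3.94 and 3.92 at P14, a change of 2.27 ± 0.42 (4.83-fold, adjusted p = 0.0447). Even the highest P10 array lay clearly below the lowest P14 array. Klk1b21, which encodes a tissue kallikrein, a secreted serine protease, was at 3.84, 5.30 and 4.81 at P10 and at 7.02, 6.66 and 6.98 at P14. Its change of 2.24 ± 0.44 (adjusted p = 0.0312) is uncertain as to the gene, since the mouse kallikreins form a family of near-identical copies that a probe may not tell apart. None of its 8 Klk1b relatives tested passed, with changes of 0.15 ± 0.59 (Klk1b11) to 1.13 ± 0.76 (Klk1b26) and adjusted p of 0.277 to 0.952. Every P14 array lay above every P10 array in 4 of them, Klk1b5, Klk1b9, Klk1b24 and Klk1b27 (5.16% over all genes). The stages overlapped in Klk1b8, Klk1b11, Klk1b16 and Klk1b26. Since a probe may not tell these copies apart, the 4 need not be separate observations.

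Grin3b, a subunit of the NMDA type of glutamate receptor, was at 0.56, 0.11 and 0.52 at P10 and at 1.99, 2.19 and 1.17 at P14, a change of 1.39 ± 0.27 (adjusted p = 0.0312). Naprt, nicotinate phosphoribosyltransferase, which makes NAD from nicotinic acid, was at 2.61, 2.46 and 2.77 and then at 3.50, 3.33 and 3.46. Its rise of 0.82 ± 0.16 was the smallest of the 8, but its arrays were also among the closest within each stage, with an SD of 0.15 at P10 and 0.09 at P14 (n = 3 each). Mocos, the sulfurase that activates the molybdenum cofactor of xanthine dehydrogenase and aldehyde oxidases, rose by 0.92 ± 0.19 (adjusted p = 0.04), from -1.22 ± 0.17 (SD) to -0.31 ± 0.25 (SD, n = 3 each). Ccdc107, named for a coiled-coil domain, rose by 0.96 ± 0.19, from 1.03 ± 0.26 (SD) to 1.99 ± 0.03 (SD).

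The largest falls were in Nap1l2 (-3.24), Has2 (-2.57), Afp (-2.34) and Megf10 (-2.27), and all 21 are described here by their known roles. Among genes known from the fetus, Afp, alpha-fetoprotein, a major plasma protein of the fetus, was at 3.05, 3.43 and 4.05 at P10 and at 0.49, 0.89 and 2.13 at P14. Its fall of 2.34 ± 0.36 (5.06-fold, adjusted p = 0.00539) was seen by all 10 of its probes, with changes of -2.39 to -2.28, and it was largest in run 2 (-3.16) and smallest in run 1 (-1.30). Albumin, the adult counterpart of Afp and, like it, a product of the liver, did not pass the test: Alb was at 1.42, 2.13 and 4.33 at P10 and at 2.40, 4.53 and 5.03 at P14 (change 1.36 ± 0.85, adjusted p = 0.682). The 12 genes of liver, pancreas and gut that could mark carried-over tissue include Afp itself. Their mean log2 ratios were 1.77 to 2.42 on the P10 arrays and 1.65 to 2.72 on the P14 arrays. These means therefore hold the fall of Afp, and the part of carried-over tissue in that fall was not tested. Igf2bp3, an RNA-binding protein of fetal tissues that binds Igf2 mRNA, was at -2.21, -1.88 and -2.48 and then at -3.56, -3.75 and -3.73 (change -1.49 ± 0.31, adjusted p = 0.0447). Mest, an imprinted gene expressed from the paternal copy, went from 4.76, 4.68 and 4.82 to 4.03, 3.50 and 3.83 (change -0.96 ± 0.18, adjusted p = 0.0312). The SD of Mest was 0.07 at P10 and 0.27 at P14 (n = 3 each), so that the fall was larger than the spread within either stage. Mex3a, which encodes an RNA-binding protein, fell by 1.08 ± 0.23, and its within-run changes of -1.01, -1.10 and -1.12 were close together.

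Other genes that fell encode matrix or its modifiers. Has2, hyaluronan synthase, which spins the glycosaminoglycan hyaluronan into the space between cells, was at -2.65, -2.86 and -3.45 at P10 and at -6.41, -5.42 and -4.84 at P14 (change -2.57 ± 0.50, adjusted p = 0.0312). Mmp16, a membrane-bound matrix metalloproteinase, was at 2.19, 1.14 and 1.24 and then at 0.00, -0.14 and -0.73 (change -1.81 ± 0.33). Ccdc80, a secreted protein that associates with matrix, was at 1.23, 1.42 and 1.74 and then at 0.44, 0.31 and -0.10, a fall of 1.25 ± 0.19 with an adjusted p of 0.00539. Every P14 value of these 3 genes was below every P10 value. Col8a2, a chain of the short-chain collagen VIII, fell by 1.21 ± 0.26 (adjusted p = 0.0447), and Lrrc17, a secreted leucine-rich repeat protein, by 1.50 ± 0.30 (adjusted p = 0.0312). Ptn, pleiotrophin, a heparin-binding growth factor held in the matrix, was at 1.55, 1.04 and 2.07 at P10 and at 0.01, -0.21 and 0.10 at P14 (change -1.58 ± 0.30). The fibrillar collagens and other interstitial matrix genes as a list did not pass: of 27 tested, 0 were called by limma, 6 had an unadjusted p under 0.05, all of them lower, and 10 had a positive change (37%), with a median change of -0.19. Col1a2, a chain of collagen I, and the proteoglycan Lum had changes of -1.12 ± 0.53 and -1.09 ± 0.46, and of the list Col1a2 alone passed with the run block (adjusted p = 0.0353).

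Several genes that fell are better known from neurons, guidance and adhesion. Nap1l2, a nucleosome assembly protein studied in neurons, had the largest change, -3.24 ± 0.66 (9.43-fold, adjusted p = 0.0365). It was also the least even of the 29, at 0.38, -1.58 and -0.44 at P10 and at -2.59, -3.46 and -5.30 at P14. Scn8a, a voltage-gated sodium channel, went from 4.15, 3.19 and 3.77 to 2.31, 1.51 and 1.31 (change -2.0 ± 0.42). Epha7, a receptor for ephrins that guides cells and axons, was at 3.44, 3.05 and 3.44 and then at 2.02, 2.04 and 1.78, a fall of 1.36 ± 0.26 (adjusted p = 0.0312). The SD of Epha7 was 0.22 at P10 and 0.14 at P14 (n = 3 each). Tenm3, a teneurin that joins cells across a contact, fell by 1.16 ± 0.23, Lgi2, a secreted leucine-rich repeat protein, by 1.42 ± 0.30, and Megf10, an engulfment receptor, by 2.27 ± 0.35. Megf10 went from -0.06, -0.94 and -0.94 to -2.43, -3.63 and -2.70 (adjusted p = 0.00539). Alcam, a cell adhesion molecule of the immunoglobulin family, had the smallest fall, 0.62 ± 0.13, and its 2 probes disagreed, with changes of -1.06 and -0.18.

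Signalling and cytoskeletal genes completed the list. Dusp2, a phosphatase that switches off MAP kinases, was at -0.08, -0.56 and 0.18 at P10 and at -1.50, -1.35 and -1.66 at P14 (change -1.35 ± 0.26, adjusted p = 0.0312). Tuba1a, the alpha-tubulin typical of developing neurons, fell by 1.02 ± 0.22, and Gng2, a gamma subunit of G proteins, by 1.08 ± 0.21. Unc5cl, a relative of the netrin receptors that acts in inflammatory signalling, went from 1.49, 0.74 and 0.96 to -1.07, -0.57 and -0.37 (change -1.74 ± 0.35, adjusted p = 0.0323). Each of these 4 genes was lower on every P14 array than on any P10 array. Of 8 nerve and Schwann cell genes tested, 0 were called by limma, 0 had an unadjusted p under 0.05, and 5 had a positive change, with a median of 0.24. The list median was 0.25, -0.07 and -0.06 within the 3 runs. From P07 to P21 it was -0.195, and 1 of the 8 genes passed, as lower (against 9.08% of all genes tested there). The part of nerve tissue in the falls above was not tested.

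Over the whole series these genes followed different courses. From E19 to P35 Mest went from a mean log2 ratio of 6.72 to 1.06, Scn8a from 4.97 to -0.50, Afp from 4.63 to -1.44, and Epha7 from 3.44 to 0.49. Afp and Epha7 had changed little by P07, at 4.22 and 3.20, and lay at -1.36 and 0.64 at P21. Mest had already come down to 5.48 at P07 and went on to 1.96 at P21, so its fall from P10 to P14 lies inside a decline that covers the whole period. Ccdc80 took another course: it stood at 0.38 at E19, 1.22 at P07 and 1.46 at P10, its highest stage mean of these, before 0.21 at P14 and -1.68 at P21. Of the rises, Aspg was level from E19 (1.78) to P07 (1.81), then 2.26, 3.64 and 4.46 at P10, P14 and P21. Klk1b21 went from 5.16 at P07 to 4.65 at P10 and 6.89 at P14, and was at 6.81 at P21 and 6.90 at P35.

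**Figure D2:**
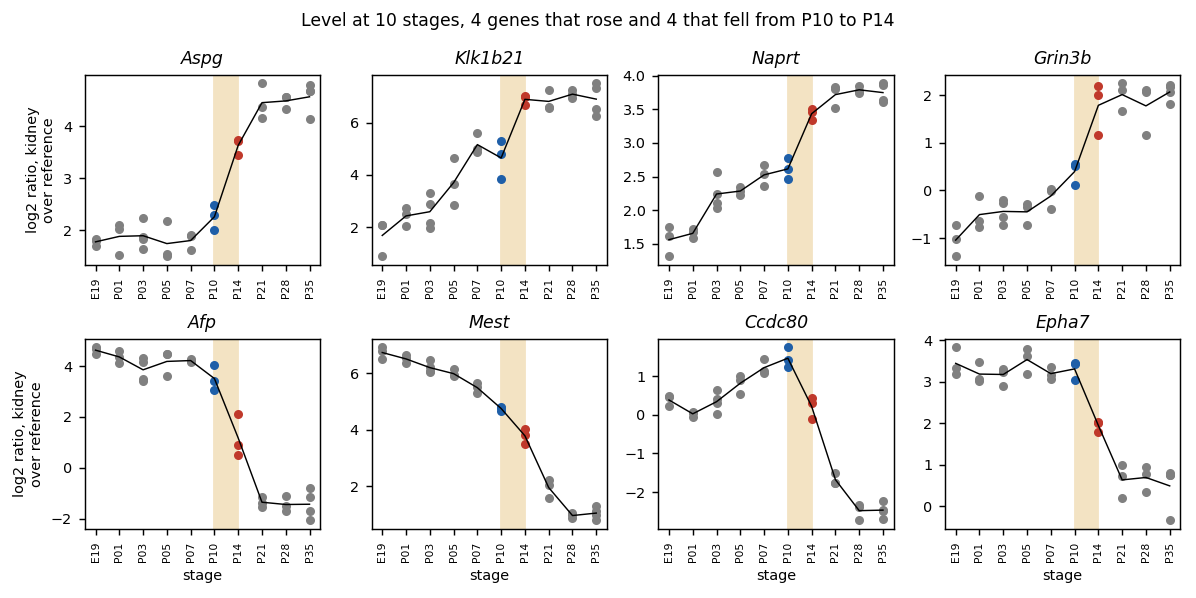
Log2 ratio (y axis) on each array (points) and stage mean (line) at the 10 stages (x axis, not to scale in days), for 4 genes that rose (top) and 4 that fell (bottom), with P10 in blue, P14 in red and the step between them shaded. Aspg stays near 1.8 until P07 and reaches 3.64 at P14, whereas Mest declines over the whole period and Ccdc80 is at 1.46 at P10 before it falls.

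The arrays on either side of the step give changes that share no array with it. The tests of these changes do share its spread, which was pooled over the whole series, the P10 and P14 arrays included. A gene with a small pooled spread is favoured in each test, so passing in each is not independent support. The direction of a change does not depend on that spread. P21 minus P07 spans the same interval and more, and 2587 of 16881 genes (15.3%) passed there, 1055 higher (6.25%) and 1532 lower (9.08%); with the run block these were 3408 (20.2%), 1512 (8.96%) and 1896 (11.2%). Of the 8 genes that rose from P10 to P14, 7 were tested and all 7 were higher at P21 than at P07. These 7 are 87.5% of the 8 and 0.664% of the genes higher at P21. All 21 genes that fell were lower at P21 (100% of the 21, and 1.37% of the genes lower at P21). Pigr could not be tested, because it had no value at P07. P21 minus P07 was -5.57 ± 0.36 for Afp, -5.46 ± 0.35 for Unc5cl and -4.44 ± 0.42 for Scn8a, and 2.65 ± 0.22 for Aspg and 2.17 ± 0.19 for Mocos. All 3 P21 arrays and 1 of 3 P07 arrays had high Xist, so these arrays too differ in their share of female RNA. They also differ in image run. Runs 1, 2 and 3 hold 1, 2 and 0 of the P07 arrays and 1, 0 and 2 of the P21 arrays, so stage and run are partly mixed there. With the Xist level as a covariate, 2456 genes passed for P21 minus P07.

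**Figure D3:**
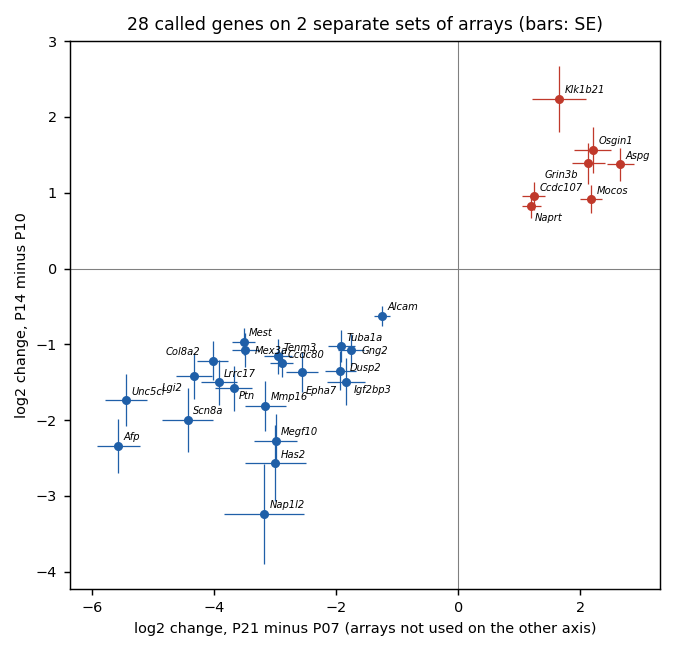
Change from P10 to P14 (y axis, log2) against the change from P07 to P21 (x axis, log2), which uses other arrays, for the 28 called genes tested in both; bars are SE. The 7 genes that rose lie in the upper right and the 21 that fell in the lower left, with Afp at -2.34 and -5.57.

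Whether the step from P10 to P14 differs from its neighbours was asked by testing the difference of consecutive steps. From P07 to P10, 0 of 16837 genes (0%) passed by limma, with 745 at an unadjusted p under 0.05, and 0 passed with the run block, with 1714 at an unadjusted p under 0.05. From P14 to P21, 440 of 17015 genes (2.59%) passed, 112 higher (0.658%) and 328 lower (1.93%), and with the run block 896 (5.27%), 282 higher (1.66%) and 614 lower (3.61%). The difference of the P10 to P14 step from the step before it passed for 0 of 16721 genes (815 at an unadjusted p under 0.05; with the run block 0, and 2425). Its difference from the step after it passed for 0 of 16861 genes (563 at an unadjusted p under 0.05; with the run block 0, and 1055). These neighbours share the P10 or the P14 arrays with the step itself. Ccdc80 had the values 0.24 ± 0.19 from P07 to P10, -1.25 ± 0.19 from P10 to P14 and -1.89 from P14 to P21. Mmp16 had 0.74 ± 0.33, -1.81 ± 0.33 and -2.09, and Klk1b21 had -0.51 ± 0.44, 2.24 ± 0.44 and -0.08. The steps last different numbers of days, and total changes were compared, so the pace per day was not tested. No gene of the 29 was shown to differ in its total change from the neighbouring steps.

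Lists of genes for cell types and pathways held few calls, so they are described by counts and medians, beside 51.3% positive changes and a median of 0.01 over all genes tested. Of 55 lists, 53 had no called member by limma. Of 859 distinct list genes tested, 3 were called, 134 had an unadjusted p under 0.05 and 27 passed with the run block.

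No transport gene of the tubule lists passed the test. In the proximal tubule, which reclaims most of the filtrate, 35 of 37 transport genes had a positive change (94.6%), with a median of 0.33, and 5 had an unadjusted p under 0.05, all of them higher. The list median was 0.38, 0.24 and 0.39 within the 3 runs. Slc13a1, the sodium-sulfate cotransporter, was at 7.56, 9.71 and 10.1 at P10 and at 9.95, 11.4 and 10.9 at P14 (1.64 ± 0.77, adjusted p = 0.57), and Slc13a2, a carrier of citrate and other dicarboxylates, had a change of 1.53 ± 0.76. In both, P10 array 1 stood lowest and the stages overlapped. Of 17 genes of amino acid and peptide uptake, 15 had a positive change, with a median of 0.40. Among them Slc6a13, a GABA and taurine transporter, passed with the run block (0.69 ± 0.19, adjusted p = 0.0195), whereas Slc7a13, which takes up aspartate and glutamate, did not (1.03 ± 0.61). The megalin and cubilin route of protein uptake had 8 of 12 positive and a median of 0.18, which was 0.01 with quantile normalization.

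Further along the nephron, 9 of 12 genes of the thick ascending limb had a positive change (median 0.30, and 0.07 without P14 array 3). Egf, the precursor of epidermal growth factor made in that segment and the distal convoluted tubule, was at 4.79, 3.03 and 3.88 at P10 and at 5.85, 5.40 and 5.19 at P14. The stages of Egf did not overlap, but the change of 1.58 ± 0.61 did not pass (adjusted p = 0.465, or 0.0621 with the run block). On the other arrays Egf was higher at P21 than at P07, by 3.09 (adjusted p = 0.000868). The distal convoluted and connecting tubule had 12 of 16 positive (median 0.46), led by the calcium channels Trpv5 (1.05 ± 0.60) and Trpv6 (0.86 ± 0.40). Principal cells had 12 of 13 positive (median 0.27, and 0.07 with quantile normalization) and intercalated cells, which secrete acid or base, 15 of 15 (median 0.41, and 0.21 without P14 array 3). Every P14 array lay above every P10 array in 1 and 0 of these genes (5.16% over all genes). The intercalated list mean was 3.59, 4.34 and 3.84 on the P10 arrays and 4.15, 4.24 and 4.89 on the P14 arrays. Foxi1, the transcription factor that specifies intercalated cells, was at -0.54 on P10 array 1 and between 4.06 and 6.08 on the other 5 arrays, so the stages overlapped (change 1.64 ± 1.03). Genes of urea and osmolyte handling had 9 of 13 positive and a median of 0.16, which was 0.0017 with the run block and without P10 array 3, with Slc14a1, a urea transporter, at -0.93 ± 0.60. On the separate P21 and P07 arrays, 8 of the 37 proximal transport genes passed, all higher (against 6.25% of all genes tested there). By limma 0 of the 13 principal and 0 of the 15 intercalated cell genes passed there (2 and 1 at an unadjusted p under 0.05), with medians of 0.24 and 0.38.

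Most genes of the metabolic lists had positive changes. In mitochondria, 24 of 27 respiratory chain and ATP synthase genes had a positive change (median 0.29), as had 21 of 25 genes of the citrate cycle and mitochondrial carriers (median 0.24) and 27 of 32 of fatty acid oxidation (median 0.41). The median of the respiratory list was 0.12, 0.32 and 0.50 within the 3 runs. With the run block Cox5b, a subunit of cytochrome c oxidase, and Esrra, a nuclear receptor that drives mitochondrial genes, passed. So did the dicarboxylate carrier Slc25a10 and the carnitine acetyltransferase Crat. The changes of Cox5b, Esrra, Slc25a10 and Crat, with the SE of the fit without the block, were 0.56 ± 0.28, 0.80 ± 0.35, 0.57 ± 0.20 and 0.82 ± 0.27. Without the block their adjusted p lay between 0.307 and 0.597. On the separate P21 and P07 arrays 18 of the 27 respiratory genes passed, all higher (against 6.25% of all genes tested there).

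Amino acid metabolism, with 42 genes tested, had 38 positive changes, a median of 0.39 and 10 genes at an unadjusted p under 0.05, all higher. Of its members, 4 passed with the run block: Hpd (2.59 ± 0.75) and Fah (0.70 ± 0.20), enzymes of tyrosine breakdown, Prodh (1.06 ± 0.26), proline dehydrogenase, and Cbs (1.15 ± 0.30), cystathionine beta-synthase. Hpd, 4-hydroxyphenylpyruvate dioxygenase, was at 0.91, 0.89 and 0.88 at P10 and at 3.61, 2.40 and 4.45 at P14. Its P10 values were nearly the same (SD 0.02), while its P14 values were far apart (SD 1.03; adjusted p = 0.259 without the block and 0.0462 with it). Otc, ornithine transcarbamylase of the urea cycle, had the largest value of the list, 3.78 ± 0.73, but was measured on only 2 of the P14 arrays and did not pass. Of the 20 genes of gluconeogenesis, fructose and glycolysis, 18 had a positive change. Khk, ketohexokinase, which begins fructose breakdown, came near the threshold: it was at 2.14, 2.87 and 2.61 and then at 3.46, 3.46 and 3.49 (0.93 ± 0.20, adjusted p = 0.0595, or 0.00924 with the run block). Among cytochromes P450 and conjugating enzymes 34 of 45 were positive, and with the run block Cyp2c23, an arachidonic acid epoxygenase, and Cyp2d9 were higher (1.54 ± 0.44 and 0.73 ± 0.34) and the glucuronosyltransferase Ugt2b38 lower (-2.54 ± 0.65). Aldo-keto reductases and steroid enzymes had 10 of 15 positive (median 0.17). Antioxidant genes had 19 of 21 positive, and the metallothioneins Mt1 and Mt2 had changes of 1.14 ± 0.44 and 1.14 ± 0.42, with every P14 array above every P10 array and adjusted p of 0.451 and 0.423.

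**Figure D4:**
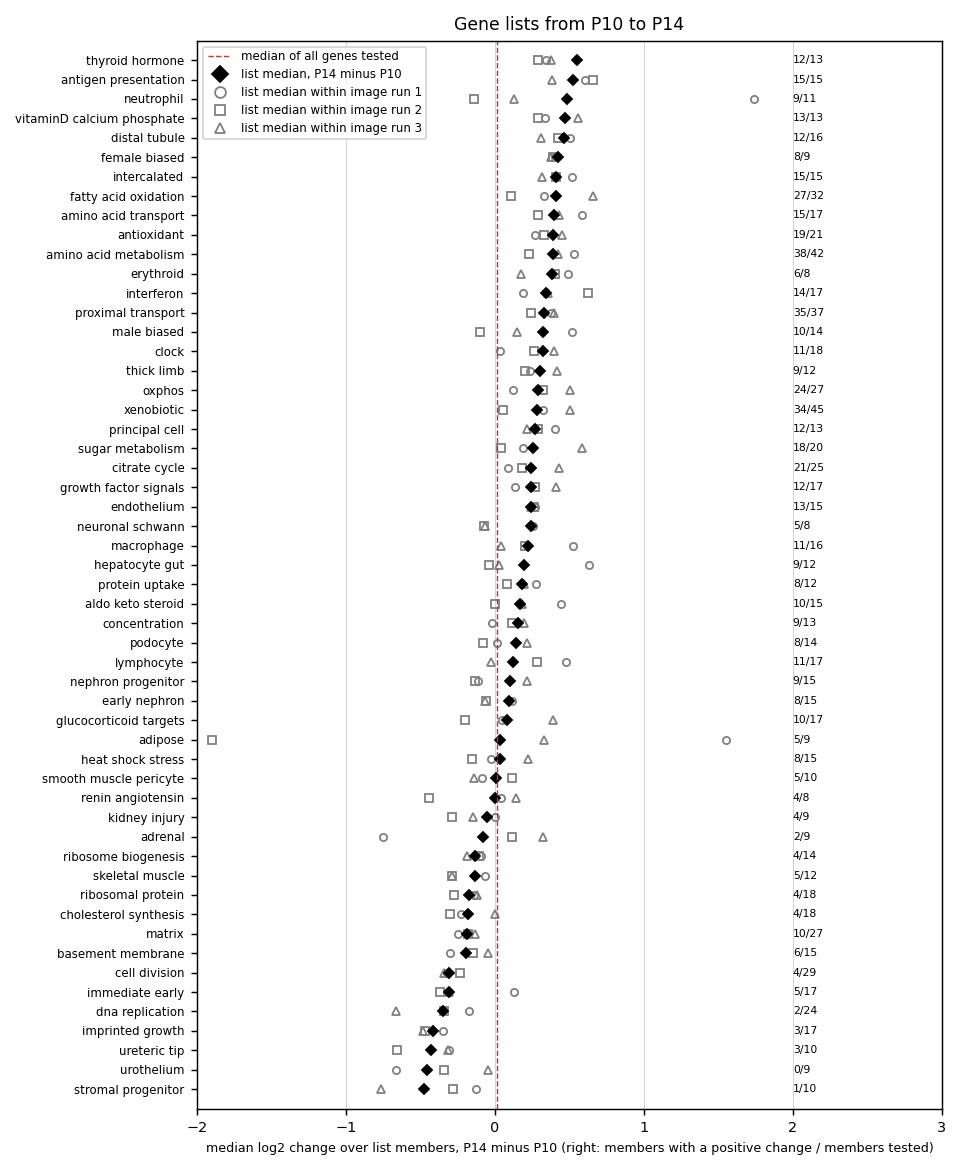
Median log2 change from P10 to P14 over the tested members of 54 gene lists (black diamonds) and within each image run (grey symbols), on a linear x axis; the dashed line is the median of all genes tested, and members with a positive change out of those tested stand at the right. The transport and metabolic lists lie to the right of the line and those of DNA replication, cell division and stromal progenitors to the left, while the adipose list runs from -1.90 to 1.55 between runs.

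Genes of cell division and DNA replication had mostly negative changes. Of 29 genes of mitosis and cell cycle control, 4 had a positive change (13.8%), and of 24 of DNA replication 2 had (8.33%), with medians of -0.31 and -0.35. The median of the replication list was -0.07 without P14 array 1 and -0.52 without P14 array 3, while that of the division list stayed between -0.41 and -0.22 under all 26 alternatives. Limma called 0 in both lists, and 3 and 6 had an unadjusted p under 0.05, all lower. Mcm4, a subunit of the replicative helicase, was at -1.19, -1.59 and -0.90 at P10 and at -2.14, -1.74 and -1.80 at P14. It passed with the run block (change -0.67 ± 0.22, adjusted p = 0.0463). Ccne2, a cyclin that starts S phase, and Ttk, a kinase of the spindle checkpoint, had changes of -1.78 ± 0.79 and -1.16 ± 0.48. On the separate P21 and P07 arrays 25 of the 29 and 18 of the 24 genes passed, all lower (against 9.08% of all genes tested there).

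Among imprinted and fetal growth genes 3 of 17 had a positive change, the median was -0.42 and 7 had an unadjusted p under 0.05, all lower. Mest and Igf2bp3, described above, were the only members past the test, and with the run block Igf2, the main fetal growth factor, joined them. Igf2 was at 0.06, 0.81 and 0.86 at P10 and at -0.84, -0.92 and 0.49 at P14, so its stages overlapped (change -1.0 ± 0.31, adjusted p = 0.277, or 0.0303 with the block). Stromal progenitor genes had 1 of 10 positive (median -0.47), with Fat4, a giant cadherin, at -0.96 ± 0.50 and the retinoic acid-making enzyme Aldh1a2 at -0.79 ± 0.29. Genes of the ureteric bud tips had 3 of 10 positive (median -0.43). Of these Wnt11 went from 1.81, 2.53 and 1.98 to 1.20, 0.74 and 0.46, which passed with the block (-1.30 ± 0.35, adjusted p = 0.0303), while Slco4c1, an organic anion transporter on the same list, had a change of 1.29 ± 0.58. Nephron progenitor genes had 9 of 15 positive changes and a median of 0.10. Among them Hoxa11 (-0.80 ± 0.23) passed with the block and Tmem100 (-1.42 ± 0.56) did not. Early nephron genes had 8 of 15 positive.

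Podocyte genes had 8 of 14 positive changes and a median of 0.14. Foxc2, a transcription factor of podocytes and of mesenchyme, was lower with the block (-0.69 ± 0.20, adjusted p = 0.0348), and the slit diaphragm gene Nphs1 had a change of 0.74 ± 0.41. In type IV collagens and laminins 6 of 15 were positive, and Nid1, nidogen, which ties both networks together, was lower with the block (-0.75 ± 0.26, adjusted p = 0.0343). Endothelial genes had 13 of 15 positive (median 0.24), and smooth muscle and pericyte genes 5 of 10 (median 0.01). Every P14 array lay above every P10 array in 0 of the 15 endothelial genes (5.16% over all genes). In the renin-angiotensin system 4 of 8 were positive. Agtr2, the angiotensin receptor prominent in fetal tissues, was at 2.15, 0.39 and 1.13 at P10 and at -0.07, -1.25 and -2.10 at P14. It passed with the block (-2.37 ± 0.62, adjusted p = 0.0134, or 0.185 without it), and was also lower at P21 than at P07, by -3.79 (adjusted p = 0.000123).

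No gene of the hormone-related lists was called without the block. Genes of thyroid hormone action had 12 of 13 positive and a median of 0.55, and those of vitamin D, calcium and phosphate 13 of 13 and a median of 0.47, with 2 genes each at an unadjusted p under 0.05. Every P14 array lay above every P10 array in 4 thyroid genes and 0 vitamin D genes (5.16% over all genes). The vitamin D list mean was 3.13, 4.07 and 3.41 on the P10 arrays and 3.80, 3.81 and 4.54 on the P14 arrays. The thyroid hormone-inactivating deiodinase Dio3 had a change of 0.86 ± 0.49 and the activating deiodinase Dio2 of -0.84 ± 0.68. Cyp24a1, which degrades active vitamin D, had 0.93 ± 0.50. Genes induced by glucocorticoids had 10 of 17 positive (median 0.08), and those of growth hormone and IGF action 12 of 17 (median 0.24), including Igfbp2 at -1.32 ± 0.37. Of the circadian clock genes 11 of 18 were positive, with the output factor Hlf at 0.96 ± 0.28 (adjusted p = 0.259) and Cry1 at -0.89 ± 0.55. The hour of collection is not given in the labels. Among genes biased to males in the adult kidney 10 of 14 were positive, and Napsa, napsin A, passed with the block (1.31 ± 0.36, adjusted p = 0.0212); in those biased to females 8 of 9 were positive. The P14 arrays and P10 arrays 1 and 2 had low Xist, and the part of sex in these lists was not tested.

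Of the lists of immune cells and defence, none had a called member without the block. Antigen presentation had 15 of 15 positive, a median of 0.52 and medians of 0.61, 0.66 and 0.38 within the runs. Cd74, the invariant chain of MHC class II, was at -2.11, -1.74 and -2.08 at P10 and at -1.01, -1.03 and -0.79 at P14, and passed with the block (1.03 ± 0.26, adjusted p = 0.0311, or 0.152 without it). Interferon-induced genes had 14 of 17 positive (median 0.34), with Irf7 at 0.86 ± 0.52, and macrophage genes 11 of 16 (median 0.22), with the complement gene C1qb at 0.84 ± 0.42. Lymphocyte genes had 11 of 17 positive (median 0.12) and red cell genes 6 of 8 (median 0.38). In the neutrophil list 9 of 11 were positive, but its median was 1.74, -0.14 and 0.13 within the runs, and the mean of its 7 members measured throughout ran from -0.10 on P14 array 1 to 2.17 on P14 array 3. Mmp9, the gelatinase of neutrophil granules, passed with the block (1.31 ± 0.38, adjusted p = 0.0158).

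Stress and growth lists differed in direction. Heat shock and unfolded protein genes had 8 of 15 positive and injured tubule genes 4 of 9. Immediate early genes, sensitive to handling, had 5 of 17 positive (median -0.31). Of them Fos was at -1.83, -6.86 and -3.09 at P10 and at -6.51, -5.05 and -6.25 at P14, a spread within P10 larger than the change of -2.01 ± 0.97. Ribosomal protein genes had 4 of 18 positive (median -0.18), ribosome biogenesis genes 4 of 14 (median -0.13) and cholesterol synthesis genes 4 of 18 (median -0.19). Limma called 0 genes in these 6 lists. An unadjusted p under 0.05 was found for 3 immediate early genes, 2 injury genes, 1 heat shock gene and 1 gene of cholesterol synthesis, all lower, and for 0 genes of both ribosome lists.

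Attached tissue varied between arrays. Adipose genes, of fat around the kidney, had 5 of 9 positive changes and a mean log2 ratio of 3.42, 2.23 and 3.08 on the P10 arrays and 4.05, 1.45 and 3.66 on the P14 arrays, and the adiponectin gene Adipoq was at -0.57 on P14 array 2 and between 2.63 and 5.69 on the others. Urothelial genes had 0 of 9 positive (median -0.46), with a mean of 0.17 to 0.53 at P10 and of -0.48 to 0.55 at P14. The adrenal list had 2 of 9 positive, and its chromaffin cell gene Chga was at 3.31, 3.21 and 2.66 and then at 3.25, 0.23 and 1.09. Skeletal muscle genes had 5 of 12 positive, with means of -2.37 to -2.12 on all 6 arrays. Adipose, urothelial and adrenal values moved between arrays of 1 stage by as much as between the stages, and their part in the 29 calls was not tested.

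The run block brought in 277 genes that the test without it did not call. This count too rests on single arrays: in place of 306, the block gave 40, 314 and 113 genes without P10 arrays 1, 2 and 3 and 110, 29 and 151 without P14 arrays 1, 2 and 3. Of the 306, 111 changed at least 2-fold, and 218 of the 303 measured on all 6 arrays did not overlap between the stages. Over all genes measured on these arrays 10.9% did not overlap, and the 303 were called by their difference on the same arrays. Beyond the list members above, the largest rises were in Itgbl1 (2.05 ± 0.72), Nr1i2 (1.88 ± 0.51), the pregnane X receptor that senses foreign compounds, Gys2 (1.81 ± 0.43), the liver form of glycogen synthase, Adamtsl2 (1.59 ± 0.49) and Hhatl (1.56 ± 0.42). The largest falls were in Nts (-3.50 ± 0.78), the neurotensin precursor, Adamts19 (-2.68 ± 0.55), a secreted protease measured on 2 of the P14 arrays, Ros1 (-2.20 ± 0.70), a receptor tyrosine kinase, and Synpr (-2.04 ± 0.66), synaptoporin. Nts was at 0.79, 0.86 and 1.14 at P10 and at -2.52, -2.68 and -2.51 at P14. Its values within each stage were close together, while its adjusted p was 0.0706 without the block and 0.0166 with it, with a spread estimated over all stages. On the separate P21 and P07 arrays 88 of the 158 rises (55.7%, and 8.34% of the genes higher at P21) and 115 of the 148 falls (77.7%, and 7.51% of those lower at P21) passed in the same direction, and 153 of 157 and 146 of 147 tested had the same sign. The spread behind these tests was again pooled over the series, P10 and P14 arrays included, so the passing counts are not independent support. Gys2 was higher at P21 by 4.88 (adjusted p = 1.6e-08) and Nts lower by -5.65 (adjusted p = 1.36e-05), whereas Nr1i2 was at 0.27 (adjusted p = 0.805).

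The sequences shown above belong to 22 of the 29 genes that had a promoter window in the RefSeq table on GRCm38.p6, from 250 bases before to 50 after a start. Letters of 9 motifs were searched on both strands, and a gene was counted if any of its windows held them. CCAAT was present in 12 of the 22 genes (54.5%), against 37.4% of 32851 windows of the same length, in 2 of the 6 that rose and 10 of the 16 that fell. GGGCGG was present in 11 (50%, against 35.7%) and TATAAA in 4 (18.2%, against 13.6%). TGACNNNGC, marked in the Aspg sequence, was present in 7 (31.8%, against 12.4%), in 3 of the 6 that rose (Aspg, Grin3b and Klk1b21) and 4 of the 16 that fell. In Klk1b21 1 of the 2 matches of these letters overlaps a match of AGGTCA, the nuclear receptor half-site, which was present in 4 of the 22 genes (18.2%, against 16.3%). CACGTG was present in 3 (13.6%, against 7.15%), TGACTCA in 1, Osgin1 (4.55%, against 5.2%), CATTCC in 1 (4.55%, against 14.7%), and the HNF1 site in 0 (against 0.00913%). A match is a description of the letters, and binding was not measured.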

How the data were processed

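The values are the authors' deposited log ratios, 1 per probe on 32 two-channel arrays. No source used here gives their unit or direction. They were read as log10, kidney (Cy5) over reference (Cy3), because they run from -3.25 to 4 and kidney markers lie above 0, and were multiplied by 3.32 to give log2 values. Were the deposited log10 values log2 instead, changes would be smaller by that factor, with the same calls. How spots were extracted, background-corrected and dye-normalized is not given in the sources used here, and spot signals were not used here, so the number of arrays limits the precision. Exact zeros (12.7% to 22.3% of values on the 6 arrays) were taken as not measured.

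The file lists 45220 probes, 202 of them empty. By the platform annotation 33653 have 1 gene symbol, 56 have several and were left out, and 11511 are unlisted and unnamed here. Probes of a gene measured on all 32 arrays were averaged, and without any the probe measured on most arrays stood for the gene. Among unnamed probes, 2-sided limma tests found 1 higher and 1 lower of 7304.

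Means of 10 stages were fitted to all 32 arrays with limma's moderated variances (limma 3.58.1 and the package data.table (1.17.8) in R 4.3.3), written for missing values and tested on simulated data. A gene needed 2 arrays per stage compared. P-values are Benjamini-Hochberg adjusted over every gene in the test and called under 0.05. Figures used matplotlib 3.10.9 in Python 3.11.15. Stages come from the sample titles, and array numbers follow accession order and pair nothing. Image run was used as a block because each run holds 1 array of both stages. Genes named are the up to 15 largest changes per direction that passed with and without the block in 1 direction in all 3 runs (here all 29 passed this), list members past the test or the 2 with the largest change, and those that came to attention afterwards: the Klk1b relatives, Alb, Eif2s3y, Nts and the other largest changes with the block. The 55 lists (910 of 995 entries tested) and this comparison were chosen with earlier results of these data known.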

Additional observations from a re-analysis of the deposited data

How the results depend on the processing

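The 26 alternatives ended many calls, while all 29 genes kept their direction under them. Since P10 and P14 values of these genes did not overlap, leaving out 1 array without the block could not reverse a direction. Against 29 genes as reported, 306 passed with the image run as a block, 278 with the block and Xist as a covariate, 0 with the block on the 6 arrays alone (3004 at an unadjusted p under 0.05) and 1517 with array weights (673 higher, 844 lower), where P14 array 2 had a weight of 6.01. Quantile normalization gave 18, the most variable probe of a gene 3 (Afp, Ccdc80 and Megf10), Xist as a covariate 6 (Afp, Aspg, Ccdc80, Grin3b, Megf10 and Ptn) and the 6 arrays alone 1 (Nts). Leaving out 1 array gave 1 to 22 genes, and 29 to 314 with the block: without P10 arrays 1, 2 and 3 there were 4, 22 and 1, and without P14 arrays 1, 2 and 3 there were 16, 3 and 8. With the block these were 40, 314, 113, 110, 29 and 151. Leaving out P10 array 3 leaves arrays of low Xist only. The cause of these shifts was not tested. The step differences gave 0 to 1 and 0 to 2 calls: without P14 array 1 Chga against the step before and Akr1c6 and Camp against the step after, and without P14 array 2 Mb against the step after. P21 minus P07 gave 1771 to 2453. The other alternatives (zeros kept, array medians subtracted, mean of all probes, both filters, robust prior with a trend) gave 31, 22, 26, 29, 29 and 24. The Xist, quantile and left-out-array settings of P21 minus P07, and the settings that join the block with another choice, were chosen after seeing the data. The labels give no replicate numbers to pair arrays by, so the only pairing used was the image run, as the block above. With spot signals not used here, weak spots cannot be told from strong ones.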
